A study of Mus musculus with 3 samples.

Results

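The angiopoietins, the Tie receptors and the phosphatase VE-PTP were examined in cultured mouse skin lymphatic endothelial cells. The group holds 5 genes, Angpt1, Angpt2, Tek, Tie1 and Ptprb, of 18194 genes on the array, and was read through every probe set that the platform annotation gives to one of them, 9 probe sets of 34958 with a single annotated gene. All samples were cells of ImmortoMice (H-2Kb-tsA58), whose transgene encodes a temperature-sensitive form of the SV40 large T antigen behind an interferon-responsive promoter. The cells were sorted by FACS, grown at 33 °C with interferon-gamma, and then kept for 3 days at 37 °C without it, which lets the T antigen be degraded. There were 3 cultures, at passages 13, 14 and 18, with 1 array each; primary cells and cells without the transgene were not analysed here. The labels do not say whether the cultures derive from 1 animal or 1 isolation. Each passage is therefore a single culture without a replicate, and an SD below is the spread over the 3 cultures.

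Tek, also called Tie2, is a receptor tyrosine kinase found mainly on endothelium. Angpt1, secreted mostly by cells around the vessel, activates it and keeps junctions tight, whereas Angpt2, which endothelial cells make and store themselves, can activate or block it depending on the setting. Tie1 is a related receptor without a classical angiopoietin ligand that pairs with Tek, and Ptprb encodes VE-PTP, a receptor-type tyrosine phosphatase that removes phosphate from Tek and keeps VE-cadherin junctions closed. In mice, Angpt2 and Tie1 are needed for the lymphatic vessel network to form and mature.

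The signal of 4 of the 5 genes, Angpt2, Tek, Tie1 and Ptprb, was detected in every culture, and that of Angpt1 was not. A gene was called detected where its brightest probe set lay above a floor on all 3 arrays. That floor was the 95th percentile of 50 genes restricted to other tissues, and came to 60.9, 58.4 and 51.5 intensity units at passages 13, 14 and 18. Over the whole array 47.9% of genes were detected. The 4 detected genes were each lower at passage 18 than at passage 13, by 1.40-fold to 1.45-fold, and at passage 14 they diverged: Angpt2 was 2.67-fold higher than at passage 13, Ptprb 1.37-fold and Tie1 1.10-fold higher, and Tek was 1.36-fold lower. No difference between 2 passages could be tested, because each passage has 1 array. In bulk RNA, a smaller share of endothelial cells and less of a transcript per cell cannot be told apart.

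The 3 arrays had nearly equal median intensities, between 25.7 and 26.3. In the RNA quality controls, the 3′ to 5′ signal ratio of Gapdh was 19.4 on the array of passage 18, against 7.10 to 8.59 on the others, and that of Actb was 1.42, against 1.18 to 1.20. The label was checked against markers. Of 10 pan-endothelial markers, 9 were detected, among them Cdh5 (VE-cadherin), Pecam1 and Erg, and the other, Cldn5, was above the floor at passages 13 and 14. Of 11 lymphatic markers, 7 were detected, including Pdpn, Flt4 and Lyve1. No probe set of Prox1, the transcription factor that sets lymphatic identity, lay above the floor on all arrays, and Itga9, Mmrn1 and Reln were below it on every array. Of 8 leukocyte markers, Cd68 and Cd53 were detected, and Ptprc, expressed by all leukocytes, did not pass the floor on any array, nor did any of the 4 keratinocyte markers.

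Of the 9 probe sets, 7 were above the floor in every culture, and 6 of these 7 had their highest signal at passage 14 and their lowest at passage 18. They belong to Angpt2, Tie1 and Ptprb. Among all detected genes 26% showed that order of the cultures, so the order itself is common on these arrays. By brightest probe sets, 7 of the 9 detected pan-endothelial markers had it too, and the others, Erg and Emcn, were highest at passage 13. The remaining probe set of the 7 in this group, that of Tek, also had its highest signal at passage 13. All 7 read lower at passage 18 than at passage 13.

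**Figure D1:**
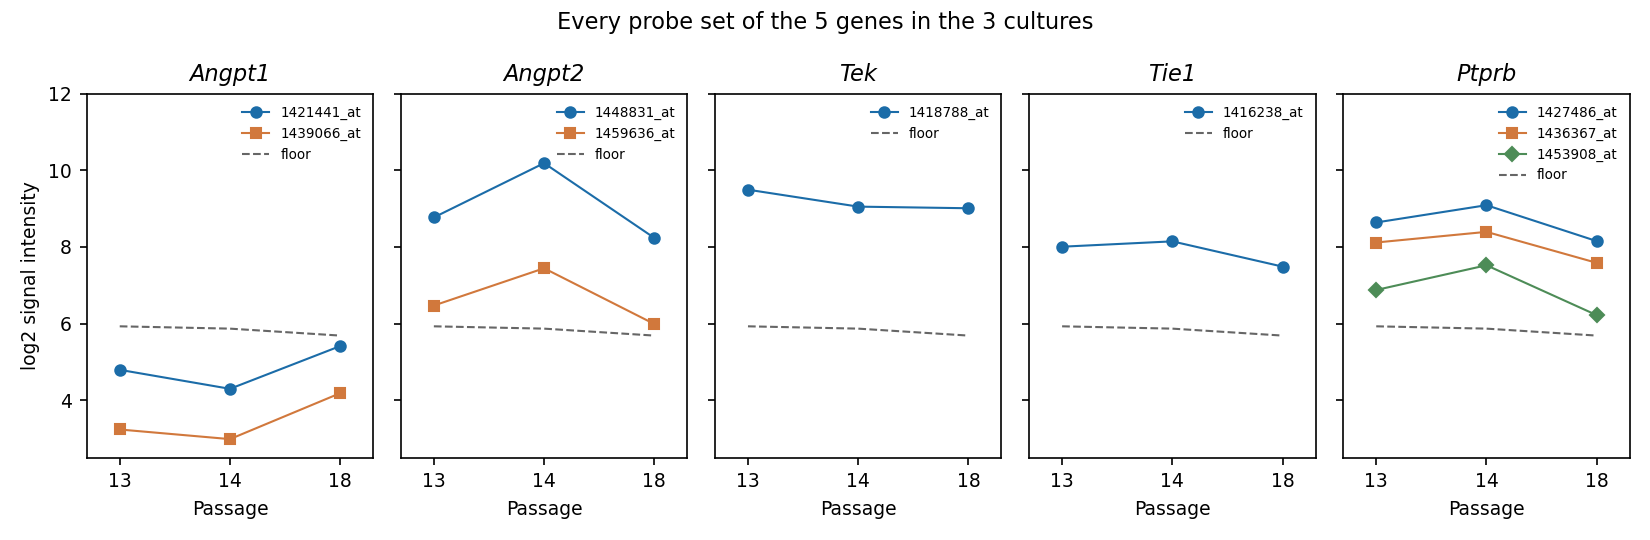
Signal of every probe set of the 5 genes (log2 intensity, vertical axis) in the cultures of passages 13, 14 and 18 (horizontal axis); each line is 1 probe set, each point 1 array, and the dashed line is the floor. Both Angpt1 probe sets lie under the floor throughout, the Angpt2, Tie1 and Ptprb probe sets peak at passage 14, and Tek is highest at passage 13.

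Among the ligands, Angpt2 had the widest spread of the detected genes of this group. Its brighter probe set (1448831_at) read 436 intensity units at passage 13, 1163 at passage 14 and 301 at passage 18. The culture of passage 14 was high and the other 2 lay closer together. On the log2 scale the level was 9.06 ± 1.01 (SD, n = 3), and 2.10% of all detected genes had an SD at least as large, against a median SD of 0.24. Between passages 14 and 13 the log2 difference was 1.41, and 0.528% of detected genes were higher by at least that much. Between passages 18 and 14 it was -1.95 (3.86-fold lower at passage 18), and 0.850% of detected genes were lower by at least that much.

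The second Angpt2 probe set (1459636_at) was dimmer and gave the same order of cultures. It read 88.7 at passage 13, 174 at passage 14 and 63.55 at passage 18, and the last value is close to that array's floor of 51.5. Its log2 difference was 0.97 for passage 14 minus 13, -0.48 for 18 minus 13 and -1.45 for 18 minus 14. The height of passage 14 over passage 13 thus differed between the probe sets (2.67-fold and 1.96-fold), while passage 18 was below passage 13 by similar amounts (1.45-fold and 1.40-fold).

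Angpt1, the activating ligand, stayed under the floor in every culture. Its brighter probe set (1421441_at) read 27.8, 19.7 and 42.6 at passages 13, 14 and 18, and the other (1439066_at) 9.44, 7.93 and 18.2. These values set only an upper limit on the transcript, and no fold change is reported from them. With the floor at the 90th percentile of the same 50 genes, which is 38.2 at passage 18, the brighter probe set was above it in that culture alone.

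The other ligands of the pathway were also dim. Angpt4, the mouse counterpart of a further Tek ligand, was below the floor on all arrays, with 14.7, 13.4 and 20.8 intensity units at passages 13, 14 and 18. Svep1, an extracellular matrix protein known to bind Tie1 and to be needed for lymphatic vessel development, read 7.91 at both passages 13 and 14 and 55.2 at passage 18, just above the floor of 51.5 there. It was singled out after its values were seen and was read by 1 probe set.

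Among the receptors, Tek read 720 intensity units at passage 13, 530 at passage 14 and 515 at passage 18 through its single probe set (1418788_at). The passage 13 culture was high and the other 2 were nearly equal, with a log2 difference of -0.04 between passages 18 and 14. Its level was 9.18 ± 0.27 on the log2 scale (SD, n = 3), and 43.0% of detected genes had an SD at least as large, which puts Tek near the middle of that distribution. Tie1 read 257, 283 and 179 at passages 13, 14 and 18 (1416238_at). Here passages 13 and 14 were close and passage 18 was low, with a log2 difference of 0.14 for passage 14 minus 13, -0.52 for 18 minus 13 and -0.66 for 18 minus 14. Tie1 was at 7.88 ± 0.35 (SD, n = 3), and 29.2% of detected genes spread at least as widely.

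The promoter windows of both receptors are shown (RefSeq, GRCm38.p6, from 250 bases before to 50 bases after the gene start). No windows were available for Angpt1, Angpt2 and Ptprb. Capitals mark the core GGAA of sites for ETS transcription factors, read on both strands, so that TTCC is the same core on the opposite strand. The Tek window is chr4:94739039-94739338 on the plus strand and the Tie1 window is chr4:118489800-118490099 on the minus strand.
Tek: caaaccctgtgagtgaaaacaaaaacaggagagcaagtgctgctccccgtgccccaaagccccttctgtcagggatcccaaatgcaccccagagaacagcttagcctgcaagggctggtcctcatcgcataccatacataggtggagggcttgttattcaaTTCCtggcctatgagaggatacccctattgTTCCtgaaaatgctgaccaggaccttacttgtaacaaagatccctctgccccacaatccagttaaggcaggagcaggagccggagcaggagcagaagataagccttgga
Tie1: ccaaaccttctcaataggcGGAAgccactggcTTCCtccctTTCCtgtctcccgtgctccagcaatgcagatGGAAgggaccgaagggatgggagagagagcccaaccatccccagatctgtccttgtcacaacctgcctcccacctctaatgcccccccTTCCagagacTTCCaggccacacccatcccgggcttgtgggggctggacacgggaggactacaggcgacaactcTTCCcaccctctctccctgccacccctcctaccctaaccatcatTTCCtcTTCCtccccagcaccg
The Tie1 window held 9 cores, 2 on the gene's strand and 7 on the other, and the Tek window held 2, both on the other strand. Of 32851 promoter windows of this length, 96.0% held at least 1 core, 84.6% at least 2 and 1.59% at least 9. The FoxO core GTAAACA, searched on both strands, occurred in neither window and in 3.65% of all windows, so no overlap of the motifs arose. A match of letters is a description and not a binding site. ETS genes that can be read beside these promoters were Erg at 11.26, 10.86 and 10.52 on the log2 scale at passages 13, 14 and 18, Ets1 at 10.13, 9.99 and 9.85, and Elf1 at 8.53, 8.14 and 7.77. Each of these was highest at passage 13 and lowest at passage 18 by its brightest probe set. Tek, with 2 cores, also had that order, and Tie1, with 9, was highest at passage 14. A link between cores and levels was not tested. A second Erg probe set (9.81, 9.90 and 9.28) and 1 of the dimmer Ets1 probe sets (8.48, 8.69 and 8.06) were highest at passage 14. Elf2, which was at 8.95, 9.50 and 8.92, was likewise highest at passage 14.

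Ptprb, the phosphatase of the pathway, was read by 3 probe sets that gave the same order of cultures. The brightest (1427486_at) read 398 intensity units at passage 13, 544 at passage 14 and 284 at passage 18. The second (1436367_at) read 277, 336 and 192, and the third (1453908_at) 118, 184 and 74.6. All 3 were above the floor in every culture, highest at passage 14 and lowest at passage 18. Their log2 differences lay between 0.28 and 0.64 for passage 14 minus 13, between -0.66 and -0.49 for 18 minus 13, and between -1.30 and -0.81 for 18 minus 14. Only the dimmest of the 3 was more than 2-fold lower at passage 18 than at passage 14 (2.46-fold). By the brightest probe set the level was 8.63 ± 0.47 (SD, n = 3), and 16.8% of detected genes had an SD at least as large.

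Past a 2-fold difference, Angpt2 was the one gene of the 4 called. It was called higher at passage 14 than at passage 13, where 1.88% of detected genes were at least 2-fold higher and 2.79% at least 2-fold lower, and lower at passage 18 than at passage 14, where 5.26% were at least 2-fold lower and 6.17% higher. None of the 4 was 2-fold apart between passages 18 and 13, where 1.89% of detected genes were higher and 2% lower. A slope over passage number, fitted with limma to 9321 genes, called 0 genes at an adjusted p under 0.05 (0% of genes) and 317 at an unadjusted p under 0.05 (3.4%). The slope of Angpt2 was -0.22 ± 0.17 log2 units per passage (SE, n = 3 cultures, 95% interval -0.72 to 0.28, limma adjusted p = 0.891). The slopes of Tek, Tie1 and Ptprb were -0.07, -0.12 and -0.14, with limma adjusted p between 0.889 and 0.897. Without passage 18, the array with the highest Gapdh ratio of the 3, the slopes of Angpt2, Tie1 and Ptprb turned positive (1.41, 0.14 and 0.45) and that of Tek was -0.44.

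**Figure D2:**
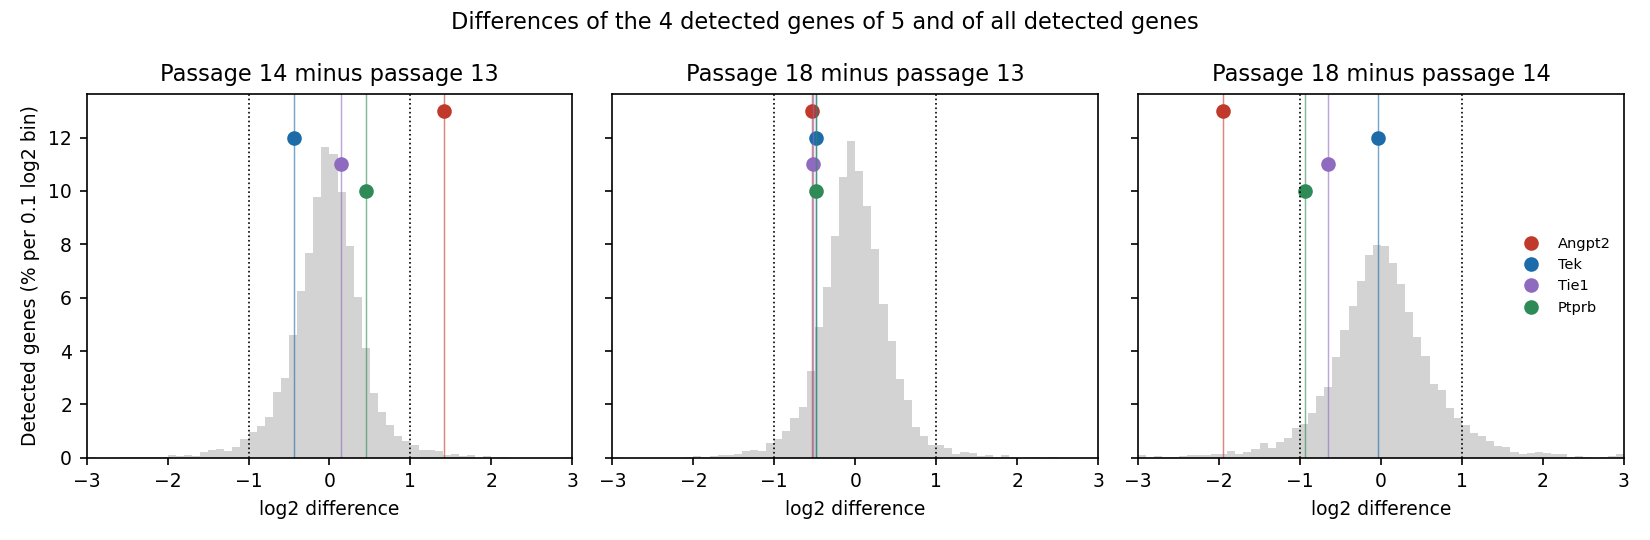
Distribution of the log2 difference between pairs of cultures over the 8709 detected genes (grey bars, percent per bin, values beyond 3 log2 units drawn in the end bins), with the 4 detected genes of the group as coloured points and lines (the height of a point carries no value); dotted lines mark 2-fold. Angpt2 lies in the right tail for passage 14 minus 13 (1.41) and the left tail for 18 minus 14 (-1.95), and the 4 genes lie together, from -0.53 to -0.48, for 18 minus 13.

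Between passages 18 and 13 the 4 detected genes differed by nearly the same amount. The log2 differences, passage 18 minus 13, were -0.53 for Angpt2, -0.48 for Tek, -0.52 for Tie1 and -0.49 for Ptprb. All 4 were lower at passage 18, where 51.9% of detected genes were lower and 47.6% higher, and their median of -0.50 compares with -0.02 over all detected genes. Between passages 18 and 14 all 4 were lower too, with a median of -0.80, where 49.3% of detected genes were lower and 50.4% higher. Between passages 14 and 13, 3 of the 4 were higher, with a median of 0.30, where 48.1% of detected genes were higher and 51.5% lower.

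Endothelial markers differed in the same direction between these cultures. All 9 detected pan-endothelial markers were lower at passage 18 than in either of the other cultures. Their median log2 difference was -0.74 for passage 18 minus 13 and -0.97 for 18 minus 14. The summed intensity of the 10 markers was 18862, 18326 and 12781 units at passages 13, 14 and 18. For each pair of cultures, the median log2 difference of the 9 markers was then subtracted from that of each gene. After this, the log2 difference of Angpt2 was 1.25 for passage 14 minus 13 and -0.98 for 18 minus 14. That of Ptprb was 0.29 and 0.03, and that of Tie1 was -0.02 and 0.31. Tek had the opposite signs to Angpt2, with -0.60 for passage 14 minus 13 and 0.92 for 18 minus 14. Relative to the markers, passage 14 was thus high for Angpt2 and low for Tek. For passage 18 minus 13 all 4 were positive against the markers, at 0.20 for Angpt2, 0.26 for Tek, 0.22 for Tie1 and 0.25 for Ptprb, so they were lower at passage 18 by less than the median marker.

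Set against the receptor Tek instead of the markers, the log2 difference of Angpt2 was 1.86 for passage 14 minus 13 and -0.05 for passage 18 minus 13. That of Ptprb relative to Tek was 0.89 and -0.002, and that of Tie1 was 0.58 and -0.03. A constant scaling factor per array cancels in these values. Counted from passage 13, the 3 genes thus rose against Tek at passage 14. At passage 18 none of their differences was larger in size than the -0.05 of Angpt2. The values compare changes from passage 13 and not levels.

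**Figure D3:**
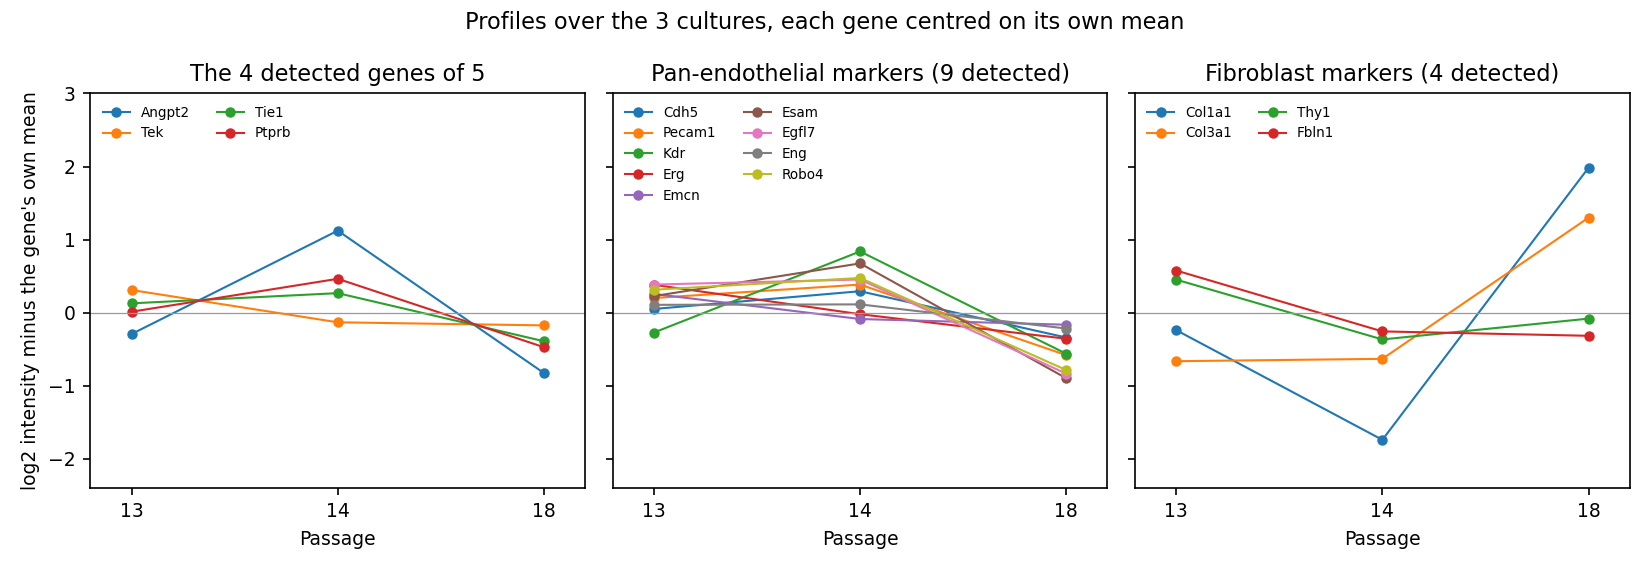
Log2 intensity of each detected gene minus its own mean over the 3 cultures (vertical axis) against passage (horizontal axis), for the group (left), pan-endothelial markers (middle) and fibroblast markers (right); each line is 1 gene and each point 1 array. The 4 genes and the 9 endothelial markers are lowest at passage 18, where Col1a1 and Col3a1 are highest; Thy1 and Fbln1 are highest at passage 13.

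Markers of other cell types differed between the cultures as well. Of 8 fibroblast markers 4 were detected, and the summed intensity of the 8 was 3346 units at passage 13, 1906 at passage 14 and 4256 at passage 18. Thy1 alone gave 2496, 1414 and 1723 of these units, so the sum depends largely on 1 gene. Col1a1, a chain of type I collagen, was at 8.04, 6.54 and 10.26 on the log2 scale, and Col3a1, of type III collagen, at 7.63, 7.67 and 9.60. The other detected markers, Thy1 and Fbln1, were highest at passage 13, with log2 differences of -0.53 and -0.89 for passage 18 minus 13. Pdgfra and Lum were below the floor on every array. Of 10 mural markers 3 were detected, and the sum of the 10 was 6227, 1129 and 7419 units. Most of it came from Acta2 (1467, 308 and 5289) and Tagln (4535, 618.6 and 1756). The detected ones disagreed in direction: for passage 18 minus 13 the log2 difference was 1.85 for Acta2 and 1.41 for Pdgfrb, and -1.37 for Tagln. Rgs5, Kcnj8, Abcc9 and Myh11 were below the floor on every array. Of 8 leukocyte markers 2 were detected, Cd68 and Cd53, and the sum of the 8 was 517, 479 and 247 units. Both the fibroblast and the mural sums were lowest at passage 14, where Angpt2, Ptprb and Tie1 were highest. The part of these cells, or of the RNA quality of the passage 18 array, in the levels of the 4 genes was not tested.

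Most genes that act with the Tie receptors were detected. Of 32 partners and regulators, 31 were measured and 26 detected. None passed the limma slope over passage, which called 0 of all 9321 genes. Of the 26, 16 were lower and 10 higher at passage 14 than at 13 (median log2 difference -0.08), where 51.5% of all detected genes were lower. At passage 18, 14 were higher and 12 lower than at 13 (median 0.01), where 47.6% were higher, so the list's directions were mixed. The brightest probe sets were those of Itgb1 and Itgav, integrin chains that can also bind angiopoietins, at 11.83 ± 0.32 and 11.41 ± 0.56, and of Adam10, a membrane protease, at 11.03 ± 0.05 (log2, SD, n = 3). Akt1, a kinase activated downstream of Tek, had the largest difference between passages 18 and 13, -0.90, with 8.26, 8.40 and 7.36 at passages 13, 14 and 18. A second Akt1 probe set gave -0.27. Elf1, an ETS factor, followed with -0.76. Foxc2, a transcription factor of lymphatic valves at 9.61, 8.06 and 9.90, was the 1 of the 26 more than 2-fold lower at passage 14 than at 13. Among all detected genes, 2.79% were at least 2-fold lower there. In all, 11 of the 26 were lowest at passage 14, against 38.7% of all detected genes.

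FoxO transcription factors are held out of the nucleus by AKT signalling from Tek, and Foxo1 is known to switch on Angpt2. Foxo1 was at 9.66, 9.72 and 10.32 at passages 13, 14 and 18, a log2 difference of 0.66 between passages 18 and 13. The other Foxo1 probe sets that passed the floor in every culture gave 0.25 and 0.13. Foxo3 was at 10.32, 10.23 and 10.98, and all of its 3 probe sets were higher at passage 18 than at 13, by 0.66 to 0.87. Of 16 FoxO target genes 14 were detected, and none passed the limma slope, which called 0 of all 9321 genes. At passage 14, 11 of the 14 were lower and 2 higher than at 13 (median log2 difference -0.18), against 51.5% lower over all detected genes. At passage 18, 11 of the 14 were higher than at 13 (median 0.22), and 11 were higher than at 14 (median 0.52), against 47.6% and 50.4% over all detected genes.

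The target genes by rule were Cited2, Cat and Bcl2l11, the brightest, and Bcl6 and Bnip3, with the largest differences between passages 18 and 13. Cited2, a transcriptional co-regulator, was at 11.77, 10.72 and 11.87 at passages 13, 14 and 18. Cat (catalase) was at 10.25, 10.21 and 10.76, and Bcl2l11, which encodes the pro-apoptotic protein BIM, at 10.19, 10.00 and 10.81. All of these were lowest at passage 14 by these probe sets, although a dimmer Bcl2l11 probe set was lowest at passage 13 (6.27, 6.43 and 6.45). Bcl6, a transcriptional repressor, had a log2 difference of 0.70 for passage 18 minus 13, and Bnip3, a mitochondrial protein of mitophagy and cell death, one of -0.62. Of the 14 targets, 9 had their lowest signal at passage 14, the culture in which Angpt2 was highest; 38.7% of all detected genes were lowest there.

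**Figure D4:**
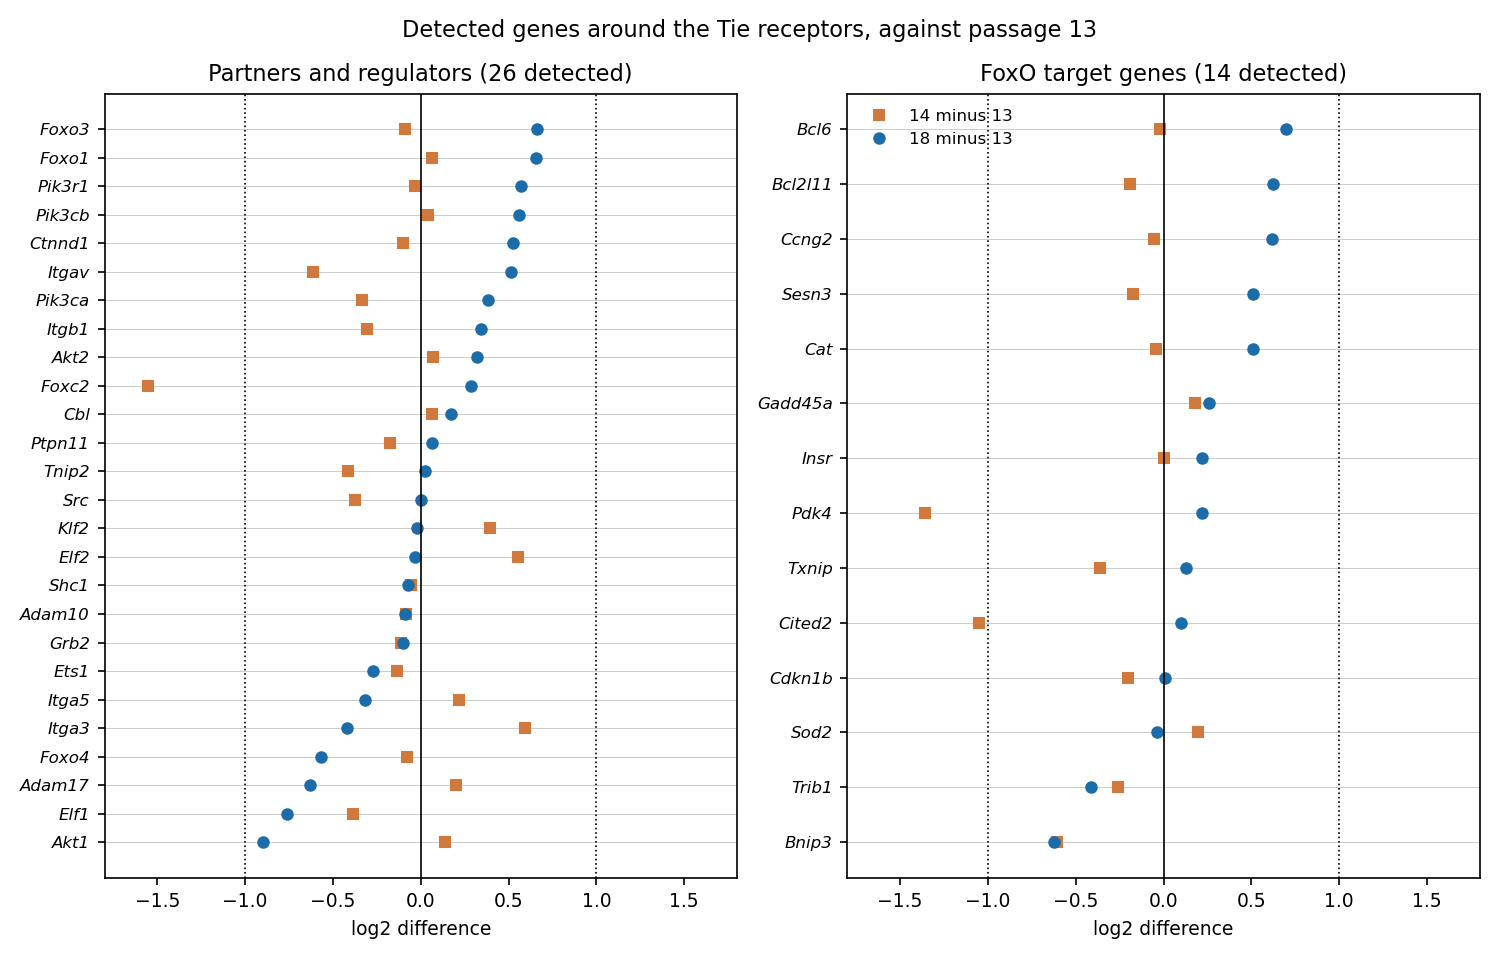
Log2 difference from passage 13 (horizontal axis) of each detected partner or regulator of the Tie receptors (left, 26 genes) and each detected FoxO target gene (right, 14 genes); orange squares are passage 14 minus 13, blue circles passage 18 minus 13, and dotted lines mark 2-fold. Most FoxO targets lie left of 0 at passage 14 and right of 0 at passage 18, and Foxc2, Pdk4 and Cited2 lie beyond 2-fold at passage 14.

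Other phosphatases of the VE-PTP subtype and the junction proteins around it were compared with Ptprb. Of 9 listed genes 7 were measured and 6 detected, and none passed the limma slope, which called 0 of all 9321 genes. Ptprj, a phosphatase of this subtype also called DEP-1, was at 7.45, 6.54 and 8.51 at passages 13, 14 and 18, lowest where Ptprb was highest. A second Ptprj probe set, also detected in every culture, had the same order, at 6.73, 6.22 and 6.89. Ptpro was below the floor on every array. Cdh5, the VE-cadherin that VE-PTP binds, was at 10.74, 10.98 and 10.35, Pecam1 at 10.75, 10.94 and 9.97, and Ctnnb1 (beta-catenin) at 12.82, 12.82 and 12.70. Cdh5 and Pecam1 had the order of Ptprb by these probe sets, with differences between passages 14 and 13 of 0.24 and 0.18. A second Cdh5 probe set read 9.98, 9.96 and 9.68 and was not highest at passage 14. Dimmer Ctnnb1 probe sets, at 9.16, 9.54 and 8.15 and at 10.67, 11.03 and 10.43, had the order of Ptprb. Among the other listed genes, Kdr (9.58, 10.69 and 9.29) had it too, and Jup (9.30, 7.80 and 8.79) was lowest at passage 14. By brightest probe sets, 3 of the 6 detected genes had the order of Ptprb, against 26% of all detected genes.

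The profile of Angpt2, whose range over the cultures was 1.95 log2 units, had close matches across the array. The nearest detected genes, by Euclidean distance between log2 profiles centred on their own means over the 3 cultures, were Prex2 (distance 0.02), a guanine nucleotide exchange factor for Rac, Notch4 (0.03), a Notch receptor of endothelium, and Top2a (0.05), a topoisomerase of dividing cells. Prex2 was at 6.67, 8.11 and 6.14 on the log2 scale at passages 13, 14 and 18, Notch4 at 6.28, 7.65 and 5.73, and Top2a at 8.18, 9.56 and 7.68. The Notch4 value at passage 18 is close to the floor (53.0 against 51.5 intensity units), and a second Notch4 probe set was below it there. The other Prex2 and Top2a probe sets were below the floor on every array, and that of Prex2 was lowest at passage 13. Of the 8709 detected genes, 18 lay within a distance of 0.2. With 3 cultures such a likeness carries little weight, and how often other profiles have as many matches was not tested. Tek, Tie1 and Ptprb, which spanned less than 1 log2 unit by their brightest probe sets, were not matched in this way.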

How the data were processed

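Expression was measured in 3 cultures of 1 group on a 1-colour Affymetrix mouse array, as the probe names show. The authors deposited a linear intensity value per probe set and array. How they made it is not given beyond MAS5, which the submitters' processing notes name without role or version. The intensity values had nearly equal medians as deposited and were used without further normalization. Every value column was used, and log2 was taken of the deposited values with nothing added.

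The platform annotation gave 1 gene for 34958 of 45101 probe sets, several for 932 and none for 9211. Symbols were updated by Entrez identifier to RefSeq (GRCm38.p6, 34754 matched). The probe set with the largest mean log2 value stands for a gene. The floor rests on 50 of 54 listed genes of other tissues, of which 2, Apoa2 and Prm1, themselves passed as detected, so it is a strict one. Counts of 2-fold differences use the 8709 detected genes.

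The slope over passage came from limma 3.58.1 (R 4.3.3; eBayes with an intensity trend) on genes with a mean above the mean floor, adjusted by Benjamini-Hochberg, with 1 residual degree of freedom. Its p-values measure only the spread among these cultures, which may be technical. The fit was tested on simulated data. With 3 arrays, the precision of each value is limited. Members and lists were chosen with earlier results of these data known. Named genes are the 5 members, the 3 brightest detected genes and the 2 with the largest difference between passages 18 and 13 of each list, and the 3 nearest profiles of members spanning 1 log2 unit; others are examples. Alternatives were other floors, the median over probe sets, dropping probe sets marked as not specific, quantile normalization, centring on the median, an added 16 in the log, other folds, no filter, all probe sets, passage 18 against the others, no intensity trend, and leaving out each culture.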

Additional observations from a re-analysis of the deposited data

How the results depend on the processing

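The number of the 5 genes detected was 4 under every alternative run, including floors at the 90th and 99th percentiles and leaving out each culture (4 to 4). The count past 2-fold between passages 14 and 13 was 1, and 0 at 3-fold. Between passages 18 and 14 it was 1, and 3 at 1.5-fold. Between passages 18 and 13 it was 0 under all of them. No gene passed the slope over passage in any fit (0 genes), with 316 to 697 genes at an unadjusted p under 0.05 and the smallest adjusted p at 0.618, for passage 18 against the others. Leaving out 1 culture at a time, slopes over the remaining pair ran from -0.49 to 1.41 for Angpt2, -0.16 to 0.14 for Tie1, -0.23 to 0.45 for Ptprb, and -0.44 to -0.01 for Tek. The sign turned where passage 18 was left out, for all of these but Tek; 2 arrays leave no test. Angpt1, below the floor, was given no slope. No paired analysis was possible because there is 1 group.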

Other observations

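Angiopoietin-like genes, whose products resemble angiopoietins but do not bind Tek, were below the floor on all arrays for each of the 5 measured of 7 listed. The brightest, Angptl4, a regulator of lipoprotein lipase, read 55.4, 48.6 and 25.2 intensity units at passages 13, 14 and 18, against floors of 60.9, 58.4 and 51.5. Of 7 detected lymphatic markers, 2 had the order of Angpt2 over the cultures, which 26% of all detected genes had. They were Lyve1, which binds hyaluronan on lymphatic vessels, and Sox18, a transcription factor of lymphatic development. Lyve1 was at 10.42, 11.52 and 7.35 on the log2 scale at passages 13, 14 and 18, and Sox18 at 9.23, 10.27 and 7.87. Pdpn (podoplanin) was lowest at passage 14 instead, at 12.17, 10.92 and 11.86.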
